A study of Mus musculus with 9 samples.

Results

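The UDP-glucuronosyltransferases (UGT) and cytosolic sulfotransferases (SULT) were followed in the livers of male mice fed different amounts of iron. The genes were taken by symbol, as every listed gene of the Ugt1, Ugt2, Ugt3, Ugt8 and Sult1 to Sult6 subfamilies other than pseudogenes. This gave 39 genes, 21 UGT and 18 SULT, of 23420 gene symbols in the count tables. RNA sequencing had been done on liver RNA of 9 wild-type C57BL/6 males, 3 separate mice on each of 3 AIN-93G diets, a purified soy-free feed. The diets held 2.5 mg iron per kg (low iron), 37.5 mg per kg (sufficient iron) and 1000 mg per kg (high iron). Feeding began at 5 weeks of age and lasted 50 days, with the liver removed in week 12. No group carried a transgene, and hemojuvelin knockout mice named in the study's protocol were not analysed here.

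UGT enzymes lie in the membrane of the endoplasmic reticulum and join glucuronic acid, taken from UDP-glucuronic acid, to small lipophilic molecules such as bilirubin, steroids, thyroid hormone and drugs. SULT enzymes work in the cytosol and transfer a sulfonate group from the donor PAPS to phenols, amines and hydroxysteroids. Both reactions make their substrates more soluble in water, and in hepatocytes the products leave through ABC transporters into bile or blood. The Ugt1a genes are read from alternative first exons that are joined to a shared set of 3′ exons, so that their proteins share a common end.

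Each library held between 22 M and 33.8 M reads on genes (M, mega). The ribosomal RNA precursor Rn45s made up 43.7% of them in low-iron replicate 1, 40.5% in high-iron replicate 12 and 12.5% to 23.8% elsewhere. The UGT and SULT genes together took 0.169% of gene reads in low-iron replicate 1, 0.211% in high-iron replicate 12 and 0.304% to 0.355% in the other 7 before this share was scaled out. Levels are therefore given as read counts per M reads (CPM) on TMM-scaled library sizes, a scaling that sets the bulk of genes level between libraries. Low-iron replicate 1 and sufficient-iron replicate 6 lay farthest apart on the first principal component of all tested genes. Hepatocyte markers (albumin, transthyretin and 3 others) summed to 43108 to 66718 CPM. The whole tissue was sequenced, so fewer cells of a type and less RNA per cell cannot be told apart.

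Of the 39 genes, 22 had enough reads to be tested, 16 UGT and 6 SULT. The other 17, 12 SULT and 5 UGT, had too few reads. Among them, 6 (Sult1c1, Sult2a3, Sult2a4, Sult2a5, Sult2a6 and Ugt2a2) had no read in any of the 9 libraries, which allows a level of up to 0.069 to 0.234 CPM per library (3 reads, counting error only). The remaining 11 had 2 to 48 reads over all libraries. They include enzymes known from other tissues or from female mice. Ugt8a, the ceramide galactosyltransferase of myelin-forming cells, had the most with 48 reads. The brain enzyme gene Sult4a1 had 12 reads, the oestrogen sulfotransferase gene Sult1e1 12, Sult3a1, which is higher in female mouse liver, 10, and Sult6b1 13. Sult2b1, whose product sulfonates cholesterol, had 7, and the hydroxysteroid sulfotransferase gene Sult2a1 had 2.

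Read sharing limits some of these counts. In the GENCODE M21 gene models (GRCm38), the exon bases that belong to a single gene came to 39.4% to 41.3% for Ugt1a1, Ugt1a2, Ugt1a5, Ugt1a6b, Ugt1a9 and Ugt1a10, to 45.4% for Ugt1a7c and to 9.28% for Ugt1a6a. Reads that overlapped several genes are listed apart from the gene counts and made up 0.477% to 0.917% of uniquely aligned reads, so that values of single Ugt1a genes rest mainly on their own first exons and do not give the summed output of the locus. Of the 50-base words of the Ugt2b5 transcript, 34.8% were also found in Ugt2b38, and 15.2% of those of Ugt2b37 were found in Ugt2b5. Reads aligned to several places are also listed apart, and the values of Ugt2b5, Ugt2b37, Ugt2b38, Ugt1a6a and Ugt1a6b are uncertain for that reason. Sharing also limits genes with few or no reads, at 97% of the words of Ugt2a1, 93.6% of those of Ugt2a2 and 6.63% to 62.1% of those of Sult2a1 to Sult2a6, so that a count of 0 there bounds uniquely placed reads only. For Sult1c2, by contrast, 0.723% of such words lay in another gene, its pseudogene Sult1c2-ps2. For Sult1b1 and Ugt2b1 there were 0 shared words, for Sult1a1 6.58% and for Ugt2a3 4.55%.

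The promoters of Sult1c2, the single gene past the test below, and of the 3 genes most often past it in the contrast of high with low iron under other settings, Sult1a1, Sult1b1 and Ugt2a3, are shown from RefSeq (GRCm38.p6; 250 bases before to 50 after the annotated start). Sult1c2 lies on chromosome 17 (chr17:53845909-53846208, minus strand), Sult1a1 on chromosome 7 (chr7:126676369-126676668, minus strand) and Ugt2a3 on chromosome 5 (chr5:87337146-87337445, minus strand). Sult1b1 has 2 listed starts, chr5:87538146-87538445 and chr5:87536173-87536472, both on the minus strand. Capitals mark matches to the 5 motifs searched.
Sult1c2: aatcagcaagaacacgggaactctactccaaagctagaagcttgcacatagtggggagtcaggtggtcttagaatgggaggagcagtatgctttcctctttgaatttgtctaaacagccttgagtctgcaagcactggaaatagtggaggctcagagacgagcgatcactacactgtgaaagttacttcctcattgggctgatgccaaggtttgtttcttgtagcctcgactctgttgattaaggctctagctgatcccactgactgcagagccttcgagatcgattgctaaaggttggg
Sult1a1: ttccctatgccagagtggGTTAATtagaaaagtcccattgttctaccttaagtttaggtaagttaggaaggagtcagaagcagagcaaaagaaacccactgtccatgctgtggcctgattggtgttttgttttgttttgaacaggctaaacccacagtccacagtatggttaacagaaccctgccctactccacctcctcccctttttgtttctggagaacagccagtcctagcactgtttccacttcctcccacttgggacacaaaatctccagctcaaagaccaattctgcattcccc
Sult1b1, first start: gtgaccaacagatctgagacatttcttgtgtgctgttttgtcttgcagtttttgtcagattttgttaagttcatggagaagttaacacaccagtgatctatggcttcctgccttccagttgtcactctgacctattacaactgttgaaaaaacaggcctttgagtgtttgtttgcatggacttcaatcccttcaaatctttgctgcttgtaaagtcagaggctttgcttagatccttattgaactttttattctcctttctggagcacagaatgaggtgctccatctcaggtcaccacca
Sult1b1, second start: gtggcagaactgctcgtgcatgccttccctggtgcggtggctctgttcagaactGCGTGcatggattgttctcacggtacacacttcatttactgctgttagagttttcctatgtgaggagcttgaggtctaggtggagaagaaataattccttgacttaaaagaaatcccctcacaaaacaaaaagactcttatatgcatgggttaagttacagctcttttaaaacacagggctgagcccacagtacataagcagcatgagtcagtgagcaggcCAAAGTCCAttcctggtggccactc
Ugt2a3: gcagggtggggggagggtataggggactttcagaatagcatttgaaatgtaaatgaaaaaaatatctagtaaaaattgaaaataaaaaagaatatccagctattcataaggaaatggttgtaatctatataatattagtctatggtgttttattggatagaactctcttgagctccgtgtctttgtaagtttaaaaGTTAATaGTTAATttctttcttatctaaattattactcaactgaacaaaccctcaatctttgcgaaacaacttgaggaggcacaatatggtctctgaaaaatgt
The motifs, searched on both strands, were the XRE core GCGTG bound by AHR, the ARE TGACNNNGC bound by NRF2, the HNF1 core GTTAAT, the HNF4 element CAAAGTCCA and the BMP response element GGCGCC. HNF1 and HNF4 are transcription factors of hepatocytes. RefSeq promoters were found for 33 of the 39 genes, 35 windows in all, and compared with 32851 windows of the same length. The HNF1 core stood in the windows of 12 genes and in 7.1% of all windows. The genes were Sult1a1, Sult1d1, Ugt1a1, Ugt1a6a, Ugt1a9, Ugt1a10, Ugt2a3 and Ugt3a1, and also Sult2a3, Sult2a4, Sult2a5 and Sult2a6, which had no read. In Ugt2a3 the core occurs at 2 adjacent positions, which begin 54 and 47 bases before the start. The XRE core stood in 5 genes, Sult1b1, Sult1d1, Sult2b1, Ugt1a5 and Ugt8a, against 32.4% of all windows, and the HNF4 element in Sult1b1 alone among the 33, against 0.475% of all windows. No window of the 33 genes held the ARE (12.4% of all windows) or the BMP response element (11.9%), and that of Sult1c2 held none of the 5 motifs. A match is a string of letters in this window and not a measured binding site.

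Levels were compared between genes as CPM per kilobase of exon that belongs to a single gene. By this measure the highest members were Ugt2b36 at 239.8 and Ugt2b5 at 230.4, followed by Sult1a1 at 134, Ugt2b1 at 129, Ugt2b34 at 124 and Ugt3a2 at 105 CPM per kilobase (means of 9 libraries). Ugt1a1, which encodes the enzyme that glucuronidates bilirubin, stood at 91.8, Ugt2b35 at 74.2 and Ugt2a3 at 67.4 CPM per kilobase. Sult1d1 (38.8), Ugt3a1 (38.4) and Ugt1a9 (19.4 CPM per kilobase) were lower, and Sult1b1 (7.79) and Sult1c2 (3.09 CPM per kilobase) lower again. Sult2a7, Sult5a1, Ugt2b37, Ugt2b38 and Ugt1a10 lay between 0.274 and 1.33 CPM per kilobase.

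**Figure D1:**
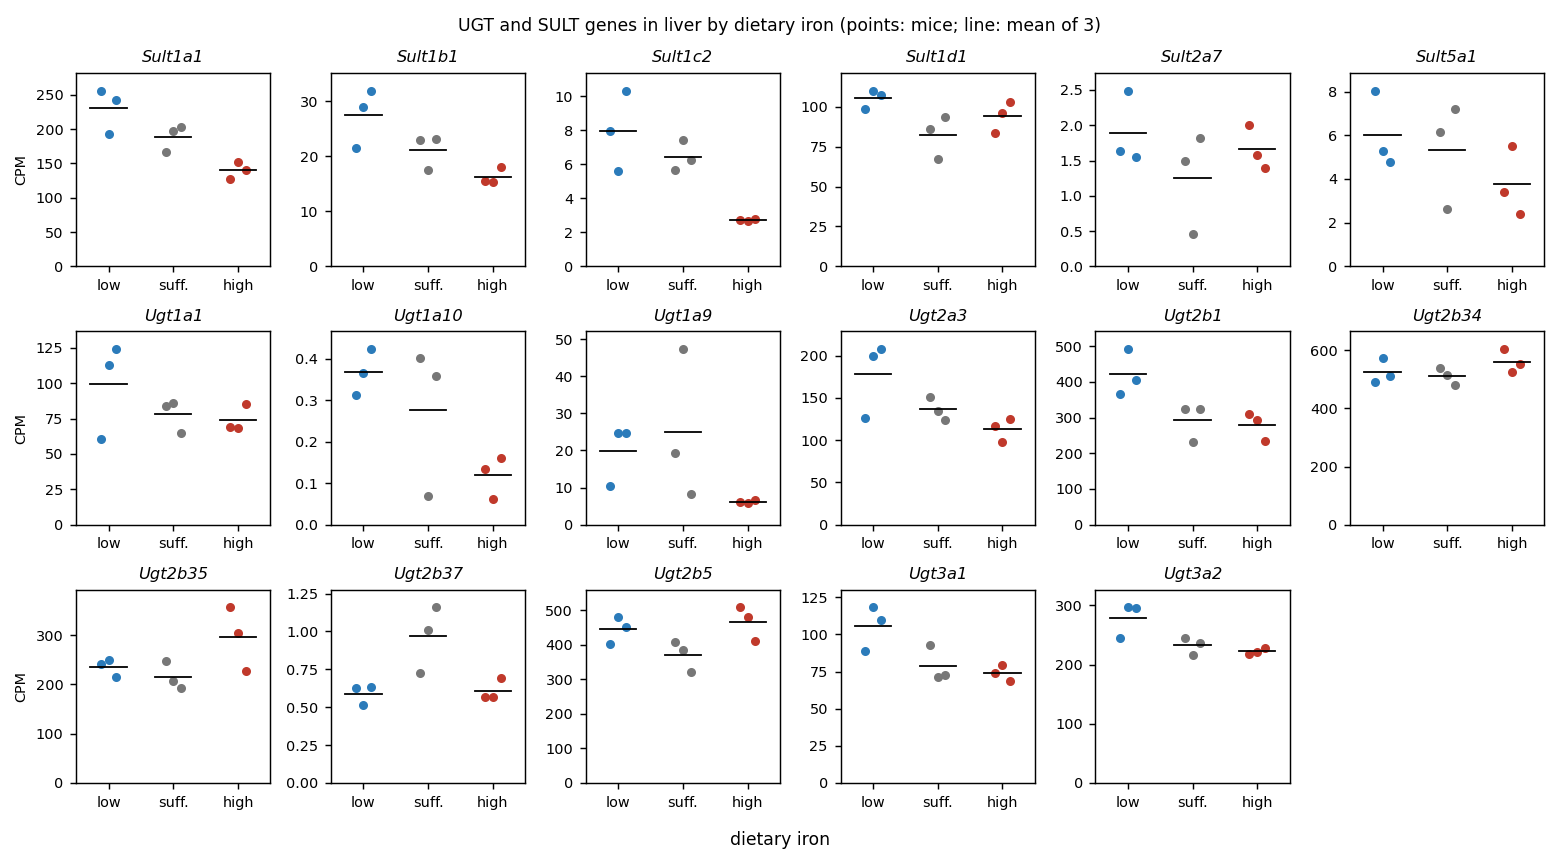
CPM of 17 tested genes in each mouse (points) on low, sufficient (suff.) and high dietary iron, with the mean of 3 mice as a line; each panel has its own axis from 0. The 3 high-iron mice sit between 2.67 and 2.78 CPM for Sult1c2, below all other mice, while the diets overlap for Ugt2b34.

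In the widest contrast, high against low dietary iron, Sult1c2 fell, and a group of SULT and UGT genes stood lower in every high-iron mouse than in every low-iron mouse without passing the test. Sult1c2, a sulfotransferase of the 1C subfamily, had 2.71, 2.67 and 2.78 CPM in high-iron livers (replicates 4, 8 and 12), against 7.96, 5.63 and 10.3 CPM in low-iron livers (replicates 1, 5 and 9). The 3 high-iron values lay close together and below all low-iron values. Its log2 fold change was -1.55 ± 0.22 (± SE; edgeR quasi-likelihood, Benjamini-Hochberg adjusted p = 0.0195), and it was the only UGT or SULT gene among 22 past the test. In all, 0.507% of the 13020 tested genes passed in this comparison, and 0.346% were lower. Over the libraries left out in turn its adjusted p ran from 0.0151 to 0.108. The call was lost without high-iron replicate 4 (0.108), 8 (0.101) or 12 (0.107) and without low-iron replicate 9 (0.0788), while the log2 fold change ran from -1.76 to -1.30. It was also lost with both Rn45s-rich libraries left out (-1.57, adjusted p = 0.0704).

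Sult1a1, which encodes the main phenol sulfotransferase of liver, had 127, 152 and 141 CPM in high-iron livers, against 256, 193 and 243 CPM in low-iron livers. The groups did not overlap, and the log2 fold change of -0.72 ± 0.14 missed the threshold (adjusted p = 0.0544). Sult1b1, whose product sulfonates phenols and, in human, thyroid hormone, had 15.4, 15.3 and 18.1 CPM in high-iron livers, against 21.5, 29 and 31.9 CPM in low-iron livers. These groups did not overlap either (log2 fold change -0.77 ± 0.17, adjusted p = 0.0795), and without low-iron replicate 1 Sult1b1 passed the test (-0.90, adjusted p = 0.0233). It passed in 4 of 21 alternatives, and its adjusted p ran up to 0.285 over them. Of the other sulfotransferase genes, Sult1d1, whose mouse product acts on catecholamines, overlapped between the diets, at 83.3, 95.8 and 103 CPM in high-iron livers and 98.3, 109.95 and 107 CPM in low-iron livers. Sult5a1 stood at 3.41, 5.5 and 2.4 CPM in high-iron livers and 8.04, 5.27 and 4.76 CPM in low-iron livers. Sult2a7, the only gene listed under a Sult2 symbol that had enough reads, had 2.01, 1.57 and 1.39 CPM in high-iron livers and 1.64, 2.49 and 1.55 CPM in low-iron livers. Both genes overlapped between the diets.

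Among the UGT genes, 6 of 16 were lower in high iron with no overlap between the diets and 0 were higher, beside 8.15% and 7.59% of all tested genes. Ugt2a3, whose human counterpart acts on bile acids, had 116, 98.4 and 125 CPM in high-iron livers, against 126, 200.2 and 208 CPM in low-iron livers (log2 fold change -0.66 ± 0.18, adjusted p = 0.186). Its adjusted p ran from 0.00918 to 0.477 over 21 alternatives, past the test in 5 of them, among them without low-iron replicate 1 (0.0222). The lowest low-iron mouse, replicate 1, stood just above the highest high-iron mouse. Ugt2b1, of the subfamily that acts on steroids and bile acids, had 310.4, 294 and 234 CPM in high-iron livers, against 365, 492 and 405 CPM in low-iron livers (log2 fold change -0.59 ± 0.17, adjusted p = 0.21). The Ugt3 genes, whose human counterparts use UDP sugars other than UDP-glucuronic acid, had values in the same direction. Ugt3a1 had 73.8, 79.3 and 68.3 CPM in high-iron livers, against 89.1, 118 and 109 CPM in low-iron livers (log2 fold change -0.52 ± 0.14, adjusted p = 0.181). Ugt3a2 had 218, 222 and 228 CPM in high-iron livers, against 245, 297 and 295 CPM in low-iron livers (log2 fold change -0.33 ± 0.11, adjusted p = 0.326). In both genes replicate 1 was the lowest of the low-iron mice and still above all high-iron mice.

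Ugt1a9, whose human counterpart glucuronidates phenols, had 6.15, 5.95 and 6.62 CPM in high-iron livers, against 10.5, 24.6 and 24.8 CPM in low-iron livers, and did not overlap (log2 fold change -1.70 ± 0.55, adjusted p = 0.286). Ugt1a10, an enzyme of the gut in human, also did not overlap but was near its limit of detection, at 0.134, 0.0629 and 0.16 CPM in high-iron livers and 0.312, 0.366 and 0.423 CPM in low-iron livers (adjusted p = 0.433). The bilirubin enzyme gene Ugt1a1 overlapped between the diets, at 68.9, 68.2 and 85.5 CPM in high-iron livers and 60.7, 113 and 124 CPM in low-iron livers. Its log2 fold change of -0.42 ± 0.23 had an adjusted p of 0.621. Over all tested members, 9 of 22 did not overlap and were lower in high iron, and 0 did not overlap and were higher, against the same shares of all tested genes. At an unadjusted p under 0.05 the numbers were also 9 lower and 0 higher, beside 5.44% and 4.22% of all tested genes (9.65% in both directions). The median log2 fold change was -0.68 over the 6 tested SULT genes and -0.22 over the 16 tested UGT genes, against -0.01 over all tested genes.

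**Figure D2:**
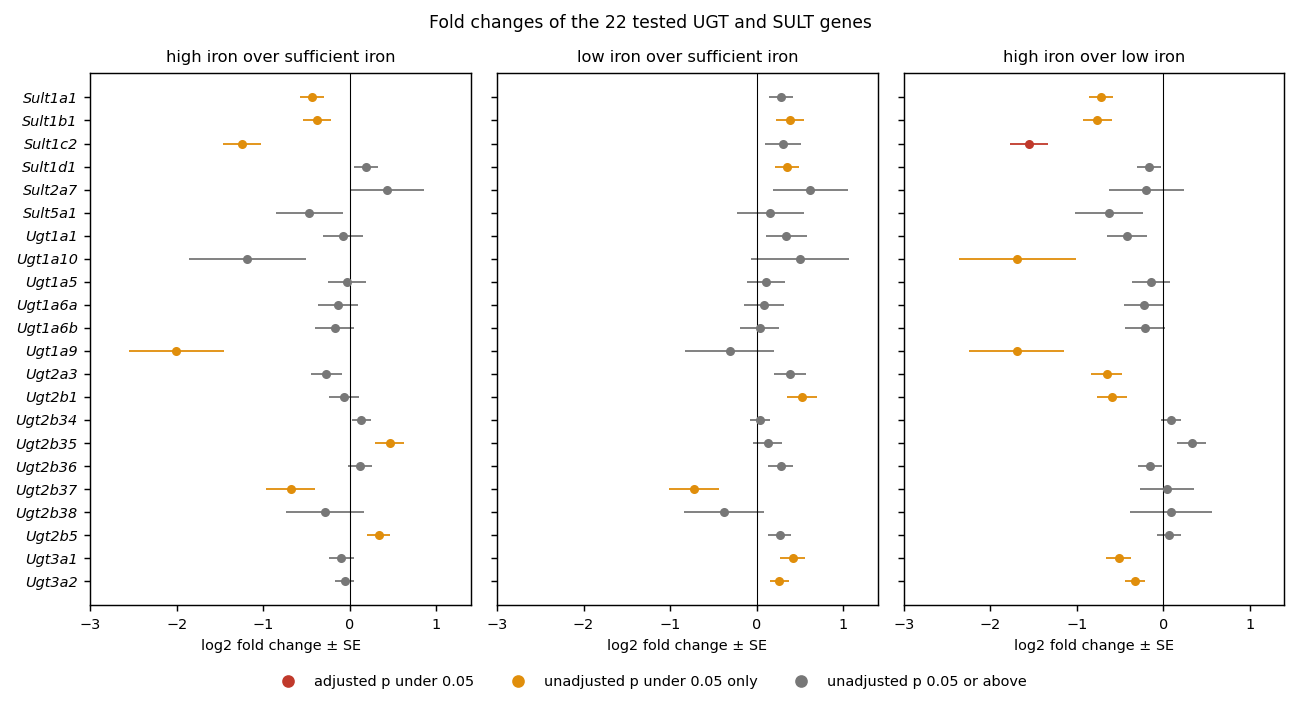
Log2 fold change ± SE of the 22 tested genes in 3 comparisons; red marks an adjusted p under 0.05, orange an unadjusted p under 0.05 only and grey the rest. Sult1c2 between high and low iron is the only red point.

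The high-iron diet was set against the sufficient diet to describe iron excess. Sult1c2 stood lower in all high-iron mice, and a pair of Ugt2b genes stood higher, but 0 of the 22 tested members passed edgeR's quasi-likelihood test, beside 0.215% of all tested genes. At an unadjusted p under 0.05 there were 7 members, 2 higher and 5 lower, beside 9.28% of all tested genes (4.16% higher, 5.12% lower). DESeq2 called 1 member (Sult1c2), and both limma-voom fits, plain and quality-weighted, called 0. The DESeq2 total over all tested genes is given in the section on processing, and those of the limma-voom fits are not given here. Sult1c2 had 2.71, 2.67 and 2.78 CPM in high-iron livers, against 5.65, 7.41 and 6.24 CPM in sufficient-iron livers (replicates 2, 6 and 10), with no overlap (log2 fold change -1.24 ± 0.22, adjusted p = 0.0634). The fold change ran from -1.33 to -1.13 and the adjusted p from 0.000172 to 0.306 over 21 alternatives, past the test in 4 of them. Sult1a1 had 127, 152 and 141 CPM in high-iron livers, against 166, 198 and 204 CPM in sufficient-iron livers. It did not overlap either (log2 fold change -0.43 ± 0.14, adjusted p = 0.386). Sult1b1 stood at 15.4, 15.3 and 18.1 CPM in high-iron livers and 23, 17.4 and 23.2 CPM in sufficient-iron livers, which overlapped (log2 fold change -0.38 ± 0.17, adjusted p = 0.528).

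Ugt1a9 had the fold change farthest from 0 among the members. It stood at 6.15, 5.95 and 6.62 CPM in high-iron livers, against 19.4, 47.3 and 8.31 CPM in sufficient-iron livers (log2 fold change -2.01 ± 0.55, adjusted p = 0.25). Sufficient-iron replicate 6 had the highest value of all 9 mice, and without it the log2 fold change was -1.15 (adjusted p = 0.572). The same library had 15 of the 43 reads of the neighbouring gene Ugt1a7c. The other Ugt1a genes were mixed there. Among the sufficient-iron mice it was highest for Ugt1a1 (86.2 CPM), Ugt1a6a (19.2 CPM) and Ugt1a6b (17.7 CPM). It was lowest for Ugt1a10 (0.069 CPM) and between the others for Ugt1a2 and Ugt1a5. In the direction opposite to Ugt1a9, Ugt2b35 had 356, 305 and 227 CPM in high-iron livers, against 248, 206 and 193 CPM in sufficient-iron livers. High-iron replicate 12 overlapped with the sufficient-iron mice (log2 fold change 0.46 ± 0.17, adjusted p = 0.458). Ugt2b5 had 509, 482 and 411 CPM in high-iron livers, against 407, 386 and 320.2 CPM in sufficient-iron livers, with no overlap (log2 fold change 0.33 ± 0.14, adjusted p = 0.517). Ugt2b37, with few reads, had 0.568, 0.566 and 0.694 CPM in high-iron livers, against 0.729, 1.01 and 1.16 CPM in sufficient-iron livers, with no overlap (log2 fold change -0.69 ± 0.28, adjusted p = 0.517), and shares sequence with Ugt2b5, as given above. In this comparison 1 member did not overlap and was higher and 4 were lower, beside 8.99% and 8.85% of all tested genes. The median log2 fold change was -0.41 over the 6 SULT genes and -0.09 over the 16 UGT genes, against -0.01 over all tested genes.

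The low-iron diet was set against the sufficient diet to describe iron deficiency. Fold changes of the tested members were mostly small and positive, and 0 of 22 passed edgeR's quasi-likelihood test, beside 0% of all tested genes. An unadjusted p under 0.05 was reached by 6 members (11.2% of all tested genes). Of these 6, 5 were higher and 1 was lower, beside 5.79% and 5.41% of all tested genes. DESeq2 and both limma-voom fits called 0 members. Their totals over all tested genes are not given here, so this 0 is not read as a result about the families. Ugt2b1 had 365, 492 and 405 CPM in low-iron livers, against 324, 231 and 324 CPM in sufficient-iron livers, with no overlap (log2 fold change 0.52 ± 0.17, adjusted p = 0.446). Sult1d1 had 98.3, 109.95 and 107 CPM in low-iron livers, against 86.3, 67.3 and 93.7 CPM in sufficient-iron livers, also with no overlap (log2 fold change 0.35 ± 0.14, adjusted p = 0.446). Ugt3a1 had 89.1, 118 and 109 CPM in low-iron livers, against 93.1, 71.5 and 72.5 CPM in sufficient-iron livers (log2 fold change 0.42 ± 0.14, adjusted p = 0.446). There the lowest low-iron mouse stood below the highest sufficient-iron mouse. Ugt3a2 (log2 fold change 0.26 ± 0.11) and Sult1b1 (0.38 ± 0.16) overlapped in the same way and shared the adjusted p of 0.446.

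Ugt2b37 was the member with a negative value among the 6, at 0.624, 0.512 and 0.634 CPM in low-iron livers, against 0.729, 1.01 and 1.16 CPM in sufficient-iron livers (log2 fold change -0.73 ± 0.29, adjusted p = 0.446). It thus stood lower than in sufficient-iron livers on both other diets, and both comparisons use the same 3 sufficient-iron mice. Sult1c2, with 7.96, 5.63 and 10.3 CPM in low-iron livers and 5.65, 7.41 and 6.24 CPM in sufficient-iron livers, overlapped between these diets (log2 fold change 0.31 ± 0.21, adjusted p = 0.547). Of the 22 members, 19 had a positive log2 fold change, beside 6438 of the 13020 tested genes. The median was 0.33 over the SULT genes and 0.20 over the UGT genes, and near 0 over all tested genes. Groups did not overlap for 2 members that were higher and 1 that was lower, beside 8.81% and 7.83% of all tested genes.

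Across the 3 diets, the test of any difference and the trend with the logarithm of dietary iron each called 1 member, Sult1c2. The 3-group test gave it an adjusted p of 0.0486 (0.215% of all tested genes passed), and the trend a log2 change of -0.60 ± 0.10 for each 10-fold step in dietary iron (adjusted p = 0.0415; 0.307% of all tested genes passed, 0.2% lower). At an unadjusted p under 0.05 the trend named 9 members, all lower, beside 8.73% of all tested genes (3.73% higher, 4.99% lower). Both calls of Sult1c2 lay close to the threshold, and each was lost on leaving out any single high-iron library, low-iron replicate 9 or sufficient-iron replicate 2 or 10. Each was also lost with plain limma-voom, a filter of 1 CPM in 3 libraries, both Rn45s-rich libraries left out or a batch term from the title numbers (0.0509 to 0.151 for the trend), and the 3-group call with upper-quartile scaling. The trend of Sult1a1 was -0.28 ± 0.05 (adjusted p = 0.0604) and that of Sult1b1 -0.29 ± 0.06 (adjusted p = 0.0817). Without sufficient-iron replicate 6 both passed (0.0441 for Sult1a1 and 0.0454 for Sult1b1), and without low-iron replicate 1 the trends of Sult1b1 (0.0295) and Ugt2a3 (0.0363) did. Over 20 alternatives the trend passed in 4 for Sult1a1, in 5 for Sult1b1 and in 4 for Ugt2a3. The adjusted p ran up to 0.26, 0.304 and 0.497 in that order. Mean levels of Sult1a1 were 231 ± 32.9, 189 ± 20.1 and 139.97 ± 12.6 CPM on the low, sufficient and high diet (SD, n = 3 each). For Sult1b1 they were 27.5 ± 5.35, 21.2 ± 3.26 and 16.3 ± 1.55 CPM in the same order, and for Sult1c2 7.97 ± 2.35, 6.43 ± 0.897 and 2.72 ± 0.0528 CPM. Diet means were highest on the low, intermediate on the sufficient and lowest on the high diet for 13 of the 22 tested members, 9 UGT and 4 SULT, beside 15.5% of all tested genes.

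**Figure D3:**
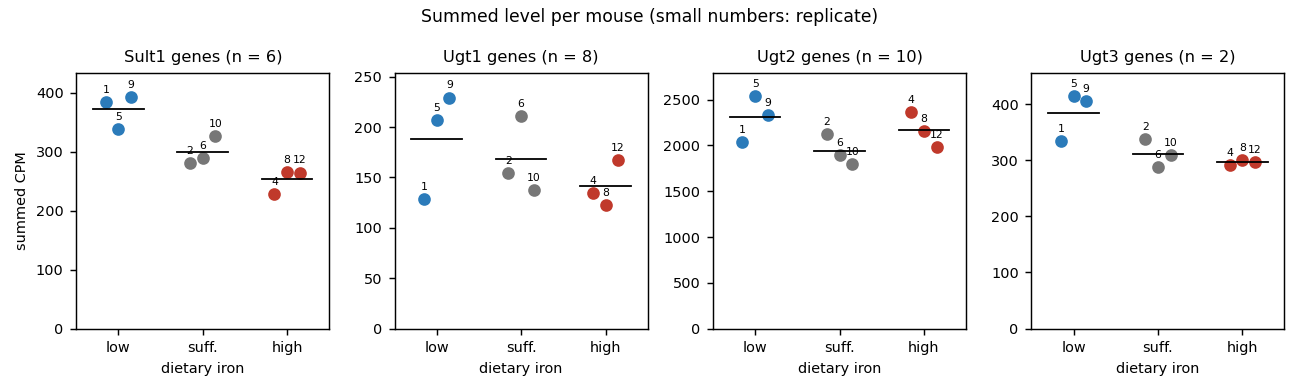
Summed CPM of the Sult1, Ugt1, Ugt2 and Ugt3 genes in each mouse (points, small numbers give the replicate) on low, sufficient (suff.) and high dietary iron, with means as lines. The Sult1 sums lie lower from diet to diet with no overlap, while the mean Ugt2 sum is lowest on the sufficient diet.

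Subfamily sums show the total level beside the single genes. The summed level of the 6 Sult1 genes was 384, 338 and 393 CPM on the low diet, 281, 289.9 and 327 CPM on the sufficient diet and 228, 266 and 265 CPM on the high diet. Sult1a1 gave most of these reads, and the sums did not overlap between diets, as a description without a test. The 8 Ugt1 genes summed to 128, 207 and 229 CPM on the low diet, 155, 211 and 138 CPM on the sufficient diet and 134, 123 and 167 CPM on the high diet, which overlapped. The 10 Ugt2 genes summed to 2041, 2546 and 2336 CPM on the low diet, 2126, 1900.0 and 1801 CPM on the sufficient diet and 2363, 2157 and 1980.5 CPM on the high diet, which overlapped as well. Ugt2b34 had the most reads of this subfamily and overlapping values, at 493, 573 and 513 CPM on the low diet, 539.96, 515 and 479 CPM on the sufficient diet and 604, 525 and 554 CPM on the high diet. Ugt2b36, Ugt2b38, Ugt1a5, Ugt1a6a and Ugt1a6b had log2 fold changes between -0.38 and 0.28 in the 3 pairwise comparisons, each at an unadjusted p above 0.05. The 2 Ugt3 genes summed to 334, 415 and 405 CPM on the low diet, 338, 287 and 309 CPM on the sufficient diet and 292, 301 and 297 CPM on the high diet.

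Some of the genes above were given on 2 diets only, and their values on the remaining diet were as follows. On the sufficient diet Ugt2a3 had 151, 135 and 124 CPM and Ugt3a2 245, 215 and 237 CPM. The bilirubin enzyme gene Ugt1a1 had 83.9, 86.2 and 64.7 CPM there, within the range of the low-iron mice. Ugt1a10 had 0.401, 0.069 and 0.359 CPM, with replicate 6 at the level of the high-iron mice. Sult5a1 (6.16, 2.62 and 7.2 CPM) and Sult2a7 (1.49, 0.46 and 1.82 CPM) were also lowest in sufficient-iron replicate 6 among the mice on that diet. On the low diet Ugt2b35 had 242, 249 and 215 CPM and Ugt2b5 403, 481 and 453 CPM. Sult1d1 had its lowest mean on the sufficient diet, with means of 105 ± 6.12, 82.4 ± 13.6 and 94 ± 9.94 CPM on the low, sufficient and high diet (SD, n = 3 each).

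The genes were also read in their order on the chromosome. Of the 39 genes, 13 lie on chromosome 5, where the 10 Ugt2 genes are followed by Sult1b1, Sult1d1 and Sult1e1. Along this row the log2 fold changes of high over low iron were 0.09 for Ugt2b34, -0.59 for Ugt2b1, 0.33 for Ugt2b35, -0.16 for Ugt2b36, 0.07 for Ugt2b5, 0.04 for Ugt2b37, -0.66 for Ugt2a3 and 0.09 for Ugt2b38. Sult1b1 (-0.77) and Sult1d1 (-0.16) came next, and Ugt2a1, Ugt2a2 and Sult1e1 had too few reads. Ugt2b1 and Ugt2b35, which are neighbours, had values of opposite sign, while Ugt2b5 and Ugt2b37, also neighbours, were both near 0. Outside this row, 9 genes lie on chromosome 7, 8 on chromosome 1 (the Ugt1a genes), 3 each on chromosomes 15 and 17 and 1 each on chromosomes 3, 8 and 10.

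**Figure D4:**
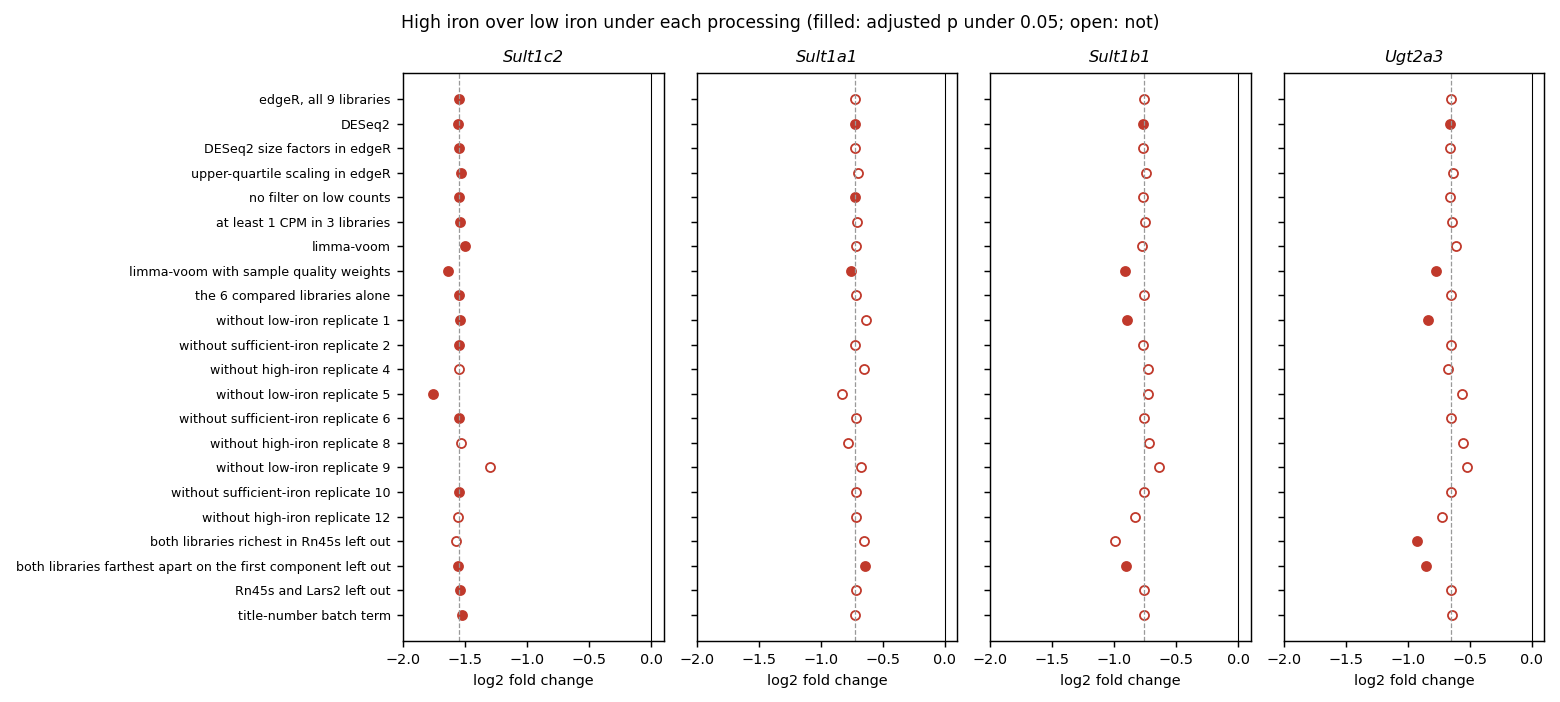
Log2 fold change between high and low iron of Sult1c2, Sult1a1, Sult1b1 and Ugt2a3 under the standard processing and 21 alternatives; filled points have an adjusted p under 0.05, and the dashed line is the standard value. All points lie below 0, and Sult1c2 is filled in most of them.

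Genes that supply, export or regulate the conjugation reactions were described beside the enzymes, as lists set down with earlier results known. Of 11 genes that make or carry UDP-glucuronic acid, 0 passed the test in any pairwise comparison (median log2 fold changes -0.01, 0.05 and 0.03 for high over sufficient, low over sufficient and high over low iron). Ugp2, which makes UDP-glucose, had a log2 fold change of 0.47 ± 0.16 between low and sufficient iron (adjusted p = 0.446), and Slc35d1, which carries UDP-glucuronic acid into the endoplasmic reticulum, had 0.54 ± 0.14 between high and low iron (adjusted p = 0.15). Of 12 genes of PAPS and sulfate supply, 0 passed (medians -0.02, 0.10 and -0.09 in the same order). The sulfate transporter gene Slc26a1 had -0.57 ± 0.13 between high and sufficient iron (adjusted p = 0.139). Of 13 hydrolase genes that can cleave conjugates or related esters, 0 passed, with Arsg at -1.13 ± 0.21 between high and sufficient iron (adjusted p = 0.0634).

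Transporters move the conjugates and their substrates across the hepatocyte membrane. Among 7 efflux transporter genes, Abcc4, an exporter of glucuronides and sulfates into blood, rose between high and low iron (log2 fold change 1.86 ± 0.30, adjusted p = 0.0313) and was the only one past the test. The call was lost without high-iron replicate 4, 8 or 12 or low-iron replicate 5 or 9 (adjusted p up to 0.132), with both Rn45s-rich libraries left out (0.121) and with a batch term from the title numbers (0.051). Abcc3, with the same role, had 0.72 ± 0.13 between high and sufficient iron (adjusted p = 0.058). Among 7 uptake transporter genes 0 passed. All 7 had negative values between high and low iron (median -0.51), and Slc22a7, an organic anion transporter gene, stood at -1.80 ± 0.36 (adjusted p = 0.0607). Over all 13020 tested genes, 6668 had negative values in that comparison. Of 19 genes of nuclear receptors and other regulators, Ahr, Nr1i2 (PXR), Nr1i3 (CAR), Ppara and Nfe2l2 (NRF2) among them, 0 passed in any pairwise comparison. The lowest p was that of Esr1, the oestrogen receptor gene, with -0.97 ± 0.23 between low and sufficient iron (adjusted p = 0.446).

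Target genes of these regulators were listed as well. Of 14 tested NRF2 targets, Gsta2 rose between high and sufficient iron (1.47 ± 0.22, adjusted p = 0.0341), and Abcc4 between high and low iron as given above. The Gsta2 call was lost on leaving out any of 6 libraries in turn, high-iron replicate 4 or 8, sufficient-iron replicate 2 or 10, or low-iron replicate 5 or 9 (adjusted p up to 0.222), and in the 6 compared libraries alone (0.0581). Between high and low iron 13 of 14 had positive values (median 0.51), beside 6352 positive and 6668 negative of the 13020 tested genes. The list shares Abcc3 and Abcc4 with the efflux transporters. Of 11 tested targets of CAR and PXR 0 passed, with Cyp2c29 at -1.33 ± 0.25 between high and low iron (adjusted p = 0.0544). Of 5 tested AHR targets 0 passed, with Cyp1a2 at -0.70 ± 0.20 (adjusted p = 0.187) and Nqo1, also an NRF2 target, at 0.71 ± 0.27 (adjusted p = 0.399) between high and low iron. Of 17 genes of other conjugation reactions, Nnmt, the nicotinamide N-methyltransferase gene, fell between high and low iron (-2.69 ± 0.29, adjusted p = 0.0113) and between high and sufficient iron (-2.40 ± 0.28, adjusted p = 0.0194). Both calls were lost without high-iron replicate 4 or 8, and the second also without sufficient-iron replicate 10 (adjusted p up to 0.0596 and 0.158). Between high and low iron 15 of the 17 had negative values (median -0.30). Male-biased liver genes had a median of -0.48 between high and low iron with 15 of 18 negative and 0 past the test, and C8a, a complement gene, fell between high and sufficient iron (-0.73 ± 0.12, adjusted p = 0.0479), a call lost on leaving out any single library other than low-iron replicate 1 (adjusted p up to 0.261) and under 5 of the other alternatives. Of 9 tested female-biased genes 0 passed (median 0.50 between high and low iron). That list also holds Sult2a1 and Sult3a1, which had too few reads.

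Markers of liver zones and cell types were summed in the same libraries. Pericentral hepatocyte markers summed to 5692, 6545 and 7720.2 CPM on the low diet, 4744, 3563 and 5569 CPM on the sufficient diet and 5014, 5698 and 5919.6 CPM on the high diet. Of its 8 genes Oat, the ornithine aminotransferase gene, fell between high and low iron (-1.14 ± 0.19, adjusted p = 0.0328), and 6 of 8 had negative values there (median -0.47). The Oat call was lost without high-iron replicate 4, 8 or 12 or low-iron replicate 5 or 9 (adjusted p up to 0.161) and in the 6 compared libraries alone (0.0552). Of 7 tested periportal markers 0 passed and 7 had negative values in that comparison (median -0.27). Over all 13020 tested genes, 6668 were negative between high and low iron and 6582 between low and sufficient iron. Kupffer cell markers summed to 86.8, 195 and 206 CPM on the low diet, 333, 252 and 201 CPM on the sufficient diet and 178, 175 and 222 CPM on the high diet, with 7 of 7 negative and 0 past the test between low and sufficient iron. Cholangiocyte (5 tested), sinusoidal endothelial (6) and stellate cell (6) markers had medians of -0.54, -0.32 and -0.35 in that comparison, and 0 passed. Hepatocyte markers, with 0 of 5 past the test, had a median of -0.36 between high and low iron with 5 of 5 negative. The part of these markers in the UGT and SULT values was not tested. Alas2, the erythroid gene of haem synthesis, was the single tested gene of its list and fell between high and low iron (-1.58 ± 0.18, adjusted p = 0.0113) and between high and sufficient iron (-1.06 ± 0.17, adjusted p = 0.0479). Hba-a1 and Hbb-b1 had no read. Reads aligned to several places are listed apart, so this does not show that red-cell RNA was absent. The first Alas2 call was lost without high-iron replicate 4 or 8 (adjusted p up to 0.076), and the second was lost on leaving out any single library other than low-iron replicate 1 or 5 (adjusted p up to 0.228), with both Rn45s-rich libraries left out (0.0857), without Rn45s and Lars2 (0.0546) and with the batch term (0.0604). Of the adipocyte list 2 genes were tested and 0 passed, and Plin1 and Lep had no read. Of 4 kidney markers Umod and Slc22a6 had no read, and all 4 summed to 0 to 0.234 CPM per library. In the intestine list Cdx1 and Cdx2 had no read and Fabp2, which liver also makes, was the single tested gene, while in the pancreas list Prss2 and Cpa1 had none and Cela1 was the single tested gene.

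**Figure D5:**
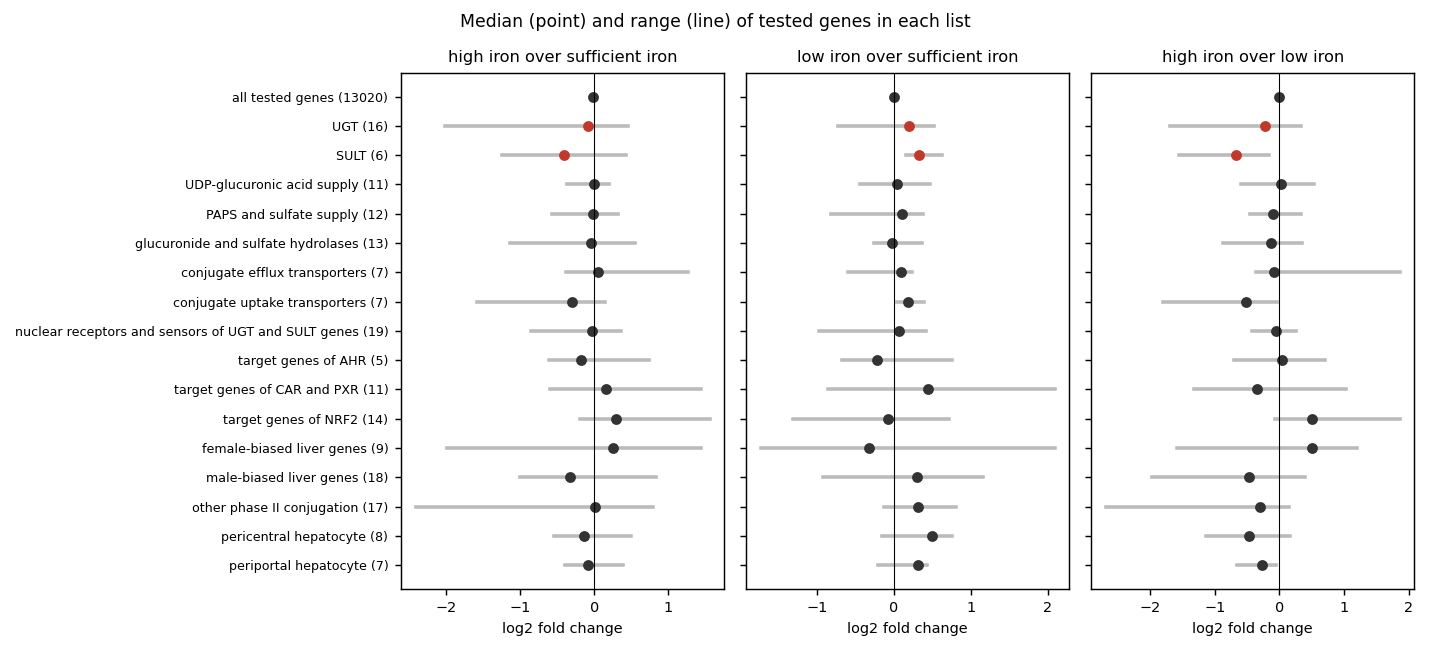
Median (points) and range (lines) of the log2 fold changes of the tested genes in the UGT and SULT families (red) and in 14 other lists, for 3 comparisons, with the number tested in brackets. The SULT median lies below 0 on high iron and above 0 on low iron relative to the sufficient diet, and the median of all tested genes is near 0.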

How the data were processed

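Liver RNA of 9 mice was sequenced on an Illumina HiSeq instrument after a TruSeq RNA kit, 1 library per mouse, per the labels' protocols. The authors deposited whole-number read counts per gene symbol for each library, and whole-library rows (no feature, ambiguous, not aligned) were kept out of library sizes and tests. FastQC and 2 genome builds, mm10 and mm9, appear in the submitters' processing notes with no role stated. Aligner, counter and strand setting were not given in the sources used here, so antisense partners cannot be told apart.

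Libraries were grouped by the diet in their labels. The main test was edgeR 4.0.16 in R 4.3.3 (TMM, filterByExpr, robust quasi-likelihood F-test over all 9 libraries), which tested 13020 genes, and p-values were Benjamini-Hochberg adjusted over all of them with a threshold of 0.05. Adjusted p-values and SEs in the text are from this fit unless another tool is named. Trends used the logarithm of dietary iron. Alternatives used DESeq2 1.42.0, limma 3.58.1 (voom), other scalings and filters, and fewer libraries. The main fit was tested on simulated data for the pairwise comparisons only, with the same dispersion set for every gene. Gene lengths came from GENCODE M21 and promoters from RefSeq.

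The genes and lists were chosen with earlier results of these data known. Values in every library are given for tested members with an unadjusted p under 0.05 and for the highest member of each subfamily by CPM. Genes named from the lists or outside these rules were chosen after their values were seen.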

Additional observations from a re-analysis of the deposited data

How the results depend on the processing

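Most counts of UGT and SULT genes past the test were 0 or 1 and moved with the processing, and the cause was not tested. Between low and sufficient iron the count was 0 under all 22 alternatives, beside 0 to 1 over all tested genes when each library was left out in turn. Totals over all tested genes under the other settings are not given here, so their 0 is not read as a result about the families. Between high and sufficient iron it was 0, and 1 (Sult1c2) with DESeq2, with no filter on low counts, with the 6 compared libraries alone and at an adjusted p under 0.1, and 0 to 1 when each library was left out in turn (1 without low-iron replicate 5; 0 to 56 over all tested genes). Over all tested genes the first 4 settings called 215, 45, 29 and 66, against 28. Between high and low iron it was 1 (66 over all tested genes), and 5 with DESeq2 (365), 2 with no filter (83), 7 with voom quality weights (342), 8 without low-iron replicate 1 and sufficient-iron replicate 6 together (the 2 libraries farthest apart on the first component; 288) and 3 at an adjusted p under 0.1 (168). With both Rn45s-rich libraries left out the 1 gene was Ugt2a3. The count ran from 0 (without high-iron replicate 4, 8 or 12 or low-iron replicate 9) to 3 (without low-iron replicate 1) when each library was left out in turn, beside 0 to 112 over all tested genes.

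For the 3-group test the count was 1 (28 over all tested genes), and 3 with DESeq2 (413), 4 with voom quality weights (230), 4 without low-iron replicate 1 and sufficient-iron replicate 6 together (192), and 0 with upper-quartile scaling, a filter of 1 CPM in 3 libraries, plain limma-voom, both Rn45s-rich libraries left out or a batch term from the title numbers. Those 5 settings called 15 to 29 over all tested genes. Leaving out each library gave 0 to 2, beside 0 to 68 over all tested genes. For the trend it was 1 (40), and 4 with DESeq2 (313), 6 with voom quality weights (294), 7 without low-iron replicate 1 and sufficient-iron replicate 6 together (257), 3 at an adjusted p under 0.1 (119), and 0 with the 1 CPM filter, plain limma-voom, both Rn45s-rich libraries left out or the batch term. Those 4 settings called 3 to 46 over all tested genes. Leaving out each library gave 0 to 3, beside 0 to 96.

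Of the 31 log2 fold changes with an unadjusted p under 0.05, none reversed under any alternative run. They were picked by that p and refitted on mostly the same libraries, so a change of sign was unlikely from the start. In 580 of their refits the side of the threshold was kept, in 15 a call was lost and in 42 one was gained. Most of these fold changes were not called in the main fit and stayed uncalled. All losses fell on the called values of Sult1c2, which stayed past the test in 16 of 21 refits between high and low iron and in 10 of 20 for the trend. Scaling by DESeq2 size factors, by upper quartiles or without Rn45s and Lars2 left the signs of the members at 6, 19 and 5 positive of 22 for high over sufficient, low over sufficient and high over low iron. In the main fit 6259, 6438 and 6352 of all 13020 tested genes were positive, in the same order. No paired analysis was possible because no replicate number occurs on more than 1 diet. The batch term joins title numbers 1 to 4, 5 to 8 and 9 to 12, a grouping by consecutive numbers that the labels tie to no shared day, litter or batch. Depth limits the 17 genes with too few reads, where 3 reads stand for 0.069 to 0.234 CPM.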

Other observations

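Genes of the same families carry older symbols in the count tables and so lie outside the selection by symbol. RefSeq lists 43 genes of these subfamilies, of which 39 are described above. Sult2a8, a hydroxysteroid sulfotransferase gene listed as 2810007J24Rik, had 433, 644 and 628 CPM on the low diet, 506, 279 and 505 CPM on the sufficient diet and 436, 472 and 421 CPM on the high diet. These ranges overlapped. Its log2 fold change was 0.04 for high over sufficient iron (edgeR quasi-likelihood, adjusted p = 0.961), 0.40 for low over sufficient iron (0.488) and -0.36 for high over low iron (0.678). Sufficient-iron replicate 6 had the lowest value of the 9. In contrast to the genes listed under a Sult2a symbol, of which Sult2a7 alone had enough reads to be tested, this gene was well covered in every male liver. Sult6b2 (listed as Gm766) and Sult3a2 (listed as Gm4794) had no read. Ugt1a8 was not listed in the count tables under its own symbol or a synonym outside the 39 genes.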
